A study of Mus musculus with 4 samples.

Results

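The secondary and tertiary granule genes of neutrophils were followed in 32Dcl3-Abl1ko cells growing with or without IL-3. These 10 genes were Ltf, Camp, Ngp, Lcn2, Chil3, Mmp8, Lyz2, Mmp9, Ly6g and Cd177. They were chosen by name for their place in the late granules or on the surface of neutrophils, with earlier results of these data known. All 10 were found by symbol among the 23756 genes of the deposited table. Of them, 8 had enough counts to be tested for a difference, and Chil3 and Mmp8 did not. Mmp8 and Chil3 also stand on the study's list of genes expressed uniquely without IL-3, so their direction is not independent evidence. That list was drawn against Abl1ko cells and also cells with intact Abl1, both kept with IL-3. In the counts used here Chil3 was not unique to cells without IL-3, with 8 counts in Abl1ko/IL3+ replicate 1.

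The 32Dcl3 line comes from murine bone marrow, depends on IL-3 for growth, and carried a CRISPR/Cas9 edit of Abl1 in every library used here. The Abl1ko/IL3+ group (2 libraries) was kept with IL-3, and the Abl1ko/IL3- group (2 libraries) consisted of edited cells that grew without it. In the paper, such growth factor-independent cells arose from the edited cells after gradual withdrawal of IL-3. The comparison therefore asks which transcripts differ between these 2 groups. Absence of the cytokine and selection of cells able to grow without it cannot be told apart here. The strain of the mice and the time without IL-3 at harvest are not given in the labels, the edited cells were selected as single clones, and the labels do not say which clone or guide each library came from. Control cells with intact Abl1 were not analysed here. Values are raw counts per gene, or CPM, which are counts scaled to library size with edgeR's TMM factors. The deposited FPKM, which divide by gene length, are used for the rank of Ngp and for the ratios between genes. Sums over genes, and genes called most abundant, rest on counts or CPM, which do not divide by gene length.

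Neutrophils make their granules in sequence. Primary granule proteins such as myeloperoxidase are made in promyelocytes, secondary (specific) granule proteins such as lactoferrin in myelocytes and metamyelocytes, and tertiary (gelatinase) granule proteins later still. The transcription factor C/EBP-epsilon, encoded by Cebpe, is required for the secondary granule genes, and GFI1 is needed for neutrophil maturation. The parental 32Dcl3 line is known to mature into granulocytes when IL-3 is replaced by G-CSF.

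The libraries held between 48953174 and 60382588 counts, so that the level of 3 counts, below which a gene cannot be told from 0, lay between 0.0465 and 0.0627 CPM. Mitochondrial transcripts took 2.55% and 1.28% of the counts under IL-3, against 4.01% and 3.31% in its absence (replicate 1, then replicate 2), and the part of this difference in the results below was not tested. The labels call the cells pre-B cells. The B lineage receptor gene Cd79b had between 607 and 1044 counts and the myeloid gene Mpo between 28978 and 121109. Abl1 itself gave 1322 and 2222 counts under IL-3, and 1544 and 2256 in the absence of IL-3, and since small deletions or insertions leave a transcript in place, these counts do not check the edit. In bulk RNA, fewer cells that express a gene and less RNA per cell cannot be told apart.

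The promoters of the genes that the results turn on are printed here because Ltf, Camp, Lyz2 and Ly6g were above both Abl1ko/IL3+ libraries in both Abl1ko/IL3- libraries, while Ngp was not. Each line gives the 250 bases before the RefSeq start site, read 5′ to 3′ on the strand of the gene in the GRCm38.p6 build, with matches to a C/EBP-like motif (TTGCNNAA) or an ETS or PU.1-like motif (AGGAAGT) on either strand in capitals. No match overlapped another.
Ltf (chr9:111019042-111019291, plus strand): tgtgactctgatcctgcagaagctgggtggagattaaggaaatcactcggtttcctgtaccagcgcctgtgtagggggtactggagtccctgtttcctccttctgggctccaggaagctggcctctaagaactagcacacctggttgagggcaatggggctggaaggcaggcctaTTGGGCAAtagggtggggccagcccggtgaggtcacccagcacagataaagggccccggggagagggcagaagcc
Camp (chr9:109849457-109849706, minus strand): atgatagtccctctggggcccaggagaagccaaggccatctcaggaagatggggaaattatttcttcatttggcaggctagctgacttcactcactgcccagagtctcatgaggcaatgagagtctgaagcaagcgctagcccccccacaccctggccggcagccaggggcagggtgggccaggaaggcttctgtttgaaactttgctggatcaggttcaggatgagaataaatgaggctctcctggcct
Ngp (chr9:110419558-110419807, plus strand): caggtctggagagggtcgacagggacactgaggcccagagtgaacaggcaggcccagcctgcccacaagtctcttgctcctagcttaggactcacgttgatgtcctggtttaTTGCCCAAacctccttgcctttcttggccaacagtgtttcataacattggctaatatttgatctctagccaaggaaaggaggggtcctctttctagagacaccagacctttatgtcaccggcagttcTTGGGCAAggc
Lyz2 (chr10:117282273-117282522, minus strand): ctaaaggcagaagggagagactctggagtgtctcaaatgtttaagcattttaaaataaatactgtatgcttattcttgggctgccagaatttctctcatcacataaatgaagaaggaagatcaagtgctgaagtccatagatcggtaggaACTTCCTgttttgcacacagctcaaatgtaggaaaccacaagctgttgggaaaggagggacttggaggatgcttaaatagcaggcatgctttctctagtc
Ly6g (chr15:75155011-75155260, plus strand): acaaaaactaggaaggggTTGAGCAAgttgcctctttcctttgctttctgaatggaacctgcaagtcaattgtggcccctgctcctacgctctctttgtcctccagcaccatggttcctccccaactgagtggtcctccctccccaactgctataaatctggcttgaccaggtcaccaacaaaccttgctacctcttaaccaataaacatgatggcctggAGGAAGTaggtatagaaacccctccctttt
Of the 10 genes, 9 had a promoter entry, Mmp9 being the exception, and Ly6g had 2 start sites. The C/EBP-like letters were found in the windows from 250 bases before to 50 after the start of 5 of the 9 genes (Ltf, Ngp, Lcn2, Mmp8 and, at 1 of its 2 starts, Ly6g), against 10.8% of 32851 mouse promoter windows. They began 75 bases before the start in Ltf, and 138 and 11 bases before it in Ngp. The ETS or PU.1-like letters were found in 4 of the 9 genes (Chil3, Mmp8, Lyz2 and Ly6g), against 9.35% of windows. A GC box (GGGCGG) was found in Lcn2 alone among them, against 35.7% of windows. Camp and Cd177 held none of these letters, which says nothing of the factors themselves. The RefSeq starts differ from the gene bounds behind the counts, and each printed window reaches into the gene as bounded there. By those bounds Camp begins at 109849617 and Ngp at 110419747, so the Ngp match 11 bases before its RefSeq start lies within the gene.

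Without IL-3, the transcripts of lactoferrin (Ltf), cathelicidin (Camp), lysozyme (Lyz2) and the surface antigen Ly6g stood above both libraries with IL-3 in each of the 2 libraries, with mean levels between 15.4 and 60.7 times higher. Ngp and Lcn2 were high in Abl1ko/IL3- replicate 2 alone, Mmp9 overlapped between the groups, and Cd177 was highest in an Abl1ko/IL3+ library. None of the 8 genes tested passed an adjusted p-value of 0.05 (edgeR quasi-likelihood test, Benjamini-Hochberg adjustment over all 16535 genes tested), where 0% of all genes passed. Camp, at 4 and 0 counts under IL-3, passed the expression filter through its Abl1ko/IL3- counts alone, so the counts that follow are also given without it. Unadjusted, 4 of the 8 had p under 0.05, all higher without IL-3 (Ltf, Camp, Lyz2 and Ly6g), where 2.56% of all genes tested were higher at that level and 5.91% differed in either direction. The same 4 of the 8 had a log2 fold change of 3 or more, against 1.25% of all genes. Blocking on the replicate number gave a count of 4, against 1.51%, and crossing the replicates, a pairing tried after the data were seen, gave 5 (Ngp added), against 2.98%. DESeq2's Wald test called the same 4 genes after adjustment, against 0.671% of genes called higher. Leaving out Camp, 3 of 7 genes (Ltf, Lyz2 and Ly6g) remained by unadjusted p, by log2 fold change, by the block and by DESeq2, and 4 of 7 by the crossed pairing. Counting all 10 genes, both Abl1ko/IL3- libraries lay above both Abl1ko/IL3+ libraries for 5 (these 4 and Mmp8), against 16.7% of all genes in the table, and below both for 0, against 14.6%. Leaving out Camp, and Mmp8 because it stands on the study's list, the genes above were Ltf, Lyz2 and Ly6g. The median log2 fold change of the 8 was 3.13, beside -0.0272 for all genes tested. It describes the tested genes only, and was 2.32 over the 7 genes left by a filter of 10 counts in every library, which removes Camp.

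**Figure D1:**
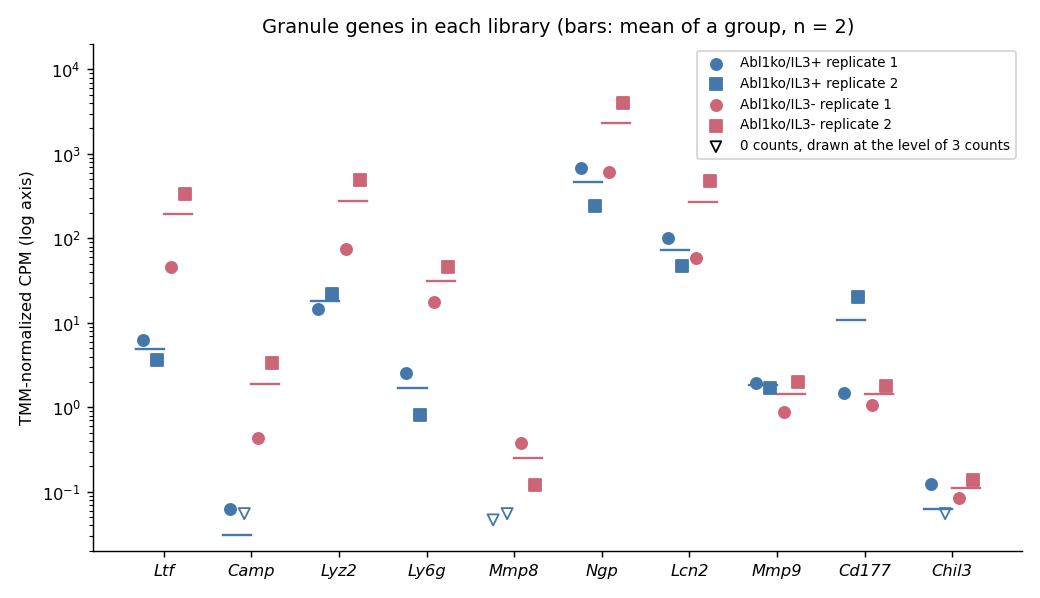
TMM-normalized CPM of the 10 granule genes (log axis) in each of the 4 libraries, blue with IL-3 and red without it, with a bar at the mean of each group (n = 2). Open triangles mark 0 counts, drawn at the level of 3 counts. For Ltf, Camp, Lyz2, Ly6g and Mmp8 both red points lie above both blue points, and in 8 of the 10 genes Abl1ko/IL3- replicate 2 lies above replicate 1 and above the mean with IL-3, the exceptions being Mmp8 and Cd177.

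Lactoferrin, encoded by Ltf (ENSMUSG00000032496, chr9:111019271-111042767, plus strand), binds iron and is the classical marker protein of secondary granules. Ltf was counted 406 times in the first Abl1ko/IL3+ replicate and 197 times in the second, against 2188 and 19613 times in the Abl1ko/IL3- libraries, which are given in the order replicate 1, replicate 2 here and below. The groups did not overlap, the lower library without IL-3 being 7.26 times the higher library with it. Mean levels were 4.96 ± 1.89 CPM with IL-3 and 192 ± 207 CPM without it (SD, n = 2 each). The log2 fold change was 5.27 (standard error 1.12, unadjusted p = 0.00542 and adjusted p = 0.727 in edgeR; adjusted p = 2.03e-06 in DESeq2). Without Abl1ko/IL3- replicate 2 the log2 fold changes were 3.21 for Ltf, 3.69 for Camp, 3.38 for Ly6g and 2.04 for Lyz2. The SD of Ltf without IL-3 exceeded its own mean, because replicate 2 was 7.39 times replicate 1.

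Camp (ENSMUSG00000038357, chr9:109847379-109849617, minus strand) encodes the precursor of the mouse cathelicidin, an antimicrobial peptide stored in secondary granules. It was counted 4 and 0 times under IL-3, against 21 and 193 times in its absence. Both libraries without IL-3 were above both with it, but the level with IL-3 rested on those 4 counts. The pooled ratio without against with IL-3 was 60.0, with an exact 95% interval from 23.1 to 222 that covers counting error only. The log2 fold change was 5.77 (standard error 1.71, unadjusted p = 0.02003 and adjusted p = 0.737 in edgeR; adjusted p = 0.0190 in DESeq2).

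Lyz2 (ENSMUSG00000069516, chr10:117277331-117282321, minus strand) encodes the lysozyme of myeloid cells, which cleaves bacterial cell walls and is found in more than 1 type of granule. Lyz2 reached 941 and 1193 counts in the presence of IL-3 and 3588 and 28226 in its absence. The groups did not overlap, and the lower library without IL-3 was 3.42 times the higher library with it. Mean levels were 18.3 ± 5.19 CPM with IL-3 and 281 ± 291 CPM without it (SD, n = 2 each), a log2 fold change of 3.94 (standard error 0.98, unadjusted p = 0.0104 and adjusted p = 0.727 in edgeR; adjusted p = 0.00094 in DESeq2). Its close paralog Lyz1 had 0 counts in 3 libraries and 19 in Abl1ko/IL3- replicate 2, and with the counts of both genes summed the log2 fold change was again 3.94.

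Ly6g (ENSMUSG00000022582, chr15:75155240-75159126, plus strand) encodes the surface antigen by which mature mouse neutrophils are usually recognised. It gave 164 and 44 counts under IL-3, but 836 and 2646 once IL-3 was absent. The lower library without IL-3 was 6.87 times the higher library with it, and replicate 2 without IL-3 was 2.61 times replicate 1, the smallest such gap among the 4 genes. Mean levels were 1.68 ± 1.23 CPM with IL-3 and 31.5 ± 19.9 CPM without it (SD, n = 2 each). The log2 fold change was 4.23 (standard error 0.86, unadjusted p = 0.00441 and adjusted p = 0.726 in edgeR; adjusted p = 2.001e-05 in DESeq2).

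Ngp (ENSMUSG00000032484, chr9:110419747-110423012, plus strand) encodes neutrophilic granule protein, a relative of the cathelicidins, and had the highest FPKM of the 10 genes in every library. Ngp was counted 44280 and 13074 times under IL-3, against 29187 and 232341 times in its absence. On the CPM scale, replicate 1 without IL-3 (609.8) lay between the libraries with IL-3 (686.9 and 240.5), and replicate 2 (4003) lay above them all. The log2 fold change was 2.31 (standard error 1.04, unadjusted p = 0.0765 and adjusted p = 0.854 in edgeR), and it was 0.40 without Abl1ko/IL3- replicate 2.

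Lcn2 (ENSMUSG00000026822, chr2:32384633-32387797, minus strand) encodes lipocalin 2, which withholds iron from bacteria by binding their siderophores. Lcn2 reached 6433 and 2578 counts in the presence of IL-3 and 2824 and 27881 in its absence. It followed the pattern of Ngp, with replicate 1 without IL-3 at 59.0 CPM, between the libraries with IL-3 at 99.8 and 47.4, and replicate 2 at 480.4. The log2 fold change was 1.87 (standard error 1.03, unadjusted p = 0.128 and adjusted p = 0.873 in edgeR), and without Abl1ko/IL3- replicate 2 its sign turned, to -0.32.

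Mmp9 (ENSMUSG00000017737, chr2:164940780-164955850, plus strand) encodes gelatinase B, the enzyme that gives tertiary granules their name. It gave 126 and 92 counts under IL-3, and 42 and 117 once IL-3 was absent. The groups overlapped, the log2 fold change was -0.33 (standard error 0.67, adjusted p = 0.98 in edgeR), and its sign turned to 0.15 without Abl1ko/IL3- replicate 1. Mmp8 (ENSMUSG00000005800, chr9:7558456-7568485, plus strand), the neutrophil collagenase, was counted 0 and 0 times under IL-3, against 18 and 7 times in its absence. Against the level of 3 counts per library, its mean without IL-3 was at least 4.88-fold higher, and it was lower in replicate 2 than in replicate 1. It was counted too thinly for the test.

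Cd177 (ENSMUSG00000052212, chr7:24743983-24760311, minus strand) encodes a surface glycoprotein of neutrophils that is also held in secondary granules. It reached 96 and 1108 counts in the presence of IL-3 and 51 and 104 in its absence. Abl1ko/IL3+ replicate 2 stood apart at 20.4 CPM, and the other 3 libraries lay between 1.07 and 1.79 CPM. The log2 fold change of -2.93 (standard error 1.27, unadjusted p = 0.0692 and adjusted p = 0.854 in edgeR) was -0.054 without that library. Chil3 (ENSMUSG00000040809, chr3:106147554-106167564, minus strand), a chitinase-like protein of mouse myeloid cells, gave 8 and 0 counts under IL-3, and 4 and 8 in the absence of IL-3. No difference was detectable at this depth, and its near-identical paralog Chil4 was not analysed here.

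**Figure D2:**
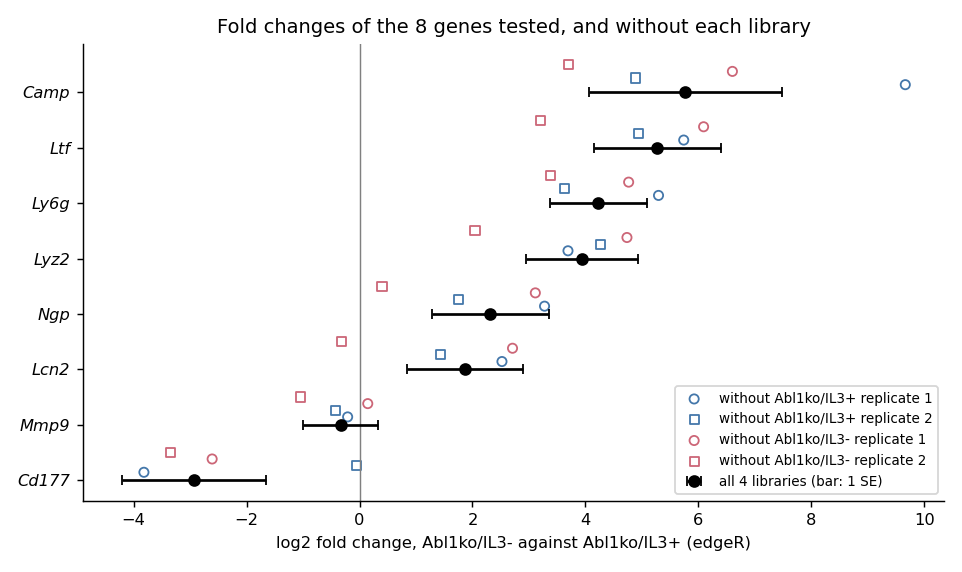
Log2 fold change of the 8 granule genes tested, Abl1ko/IL3- against Abl1ko/IL3+ (horizontal axis), from edgeR with all 4 libraries (black, bar 1 standard error) and with each library left out (open symbols). Ltf, Camp, Ly6g and Lyz2 stay above 2 in every fit, Lcn2 falls to -0.32 without Abl1ko/IL3- replicate 2, and Cd177 rises to -0.054 without Abl1ko/IL3+ replicate 2.

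The 2 libraries without IL-3 differed from each other in the same direction for most of these genes. Abl1ko/IL3- replicate 2 held 7.39 times the CPM of replicate 1 for Ltf, 7.58 times for Camp, 6.56 times for Ngp, 8.14 times for Lcn2 and 6.49 times for Lyz2. A ratio of 5 or more, a limit chosen after these values were seen, was reached by 4.3% of all genes tested. Ly6g, Mmp9 and Cd177 differed less, by 2.61, 2.30 and 1.68 times. Summed over the 10 genes, the granule transcripts took 0.0879% and 0.0303% of all counts under IL-3, but 0.0792% and 0.562% in its absence. The summed share of Abl1ko/IL3- replicate 1 thus lay between those of the libraries with IL-3, and Ngp made up most of each sum. Within replicate 1 the genes parted: Ltf, Camp, Lyz2 and Ly6g were 9.22, 14.1, 4.10 and 10.4 times the mean with IL-3, whereas Ngp was 1.32 times and Lcn2 0.802 times that mean.

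**Figure D3:**
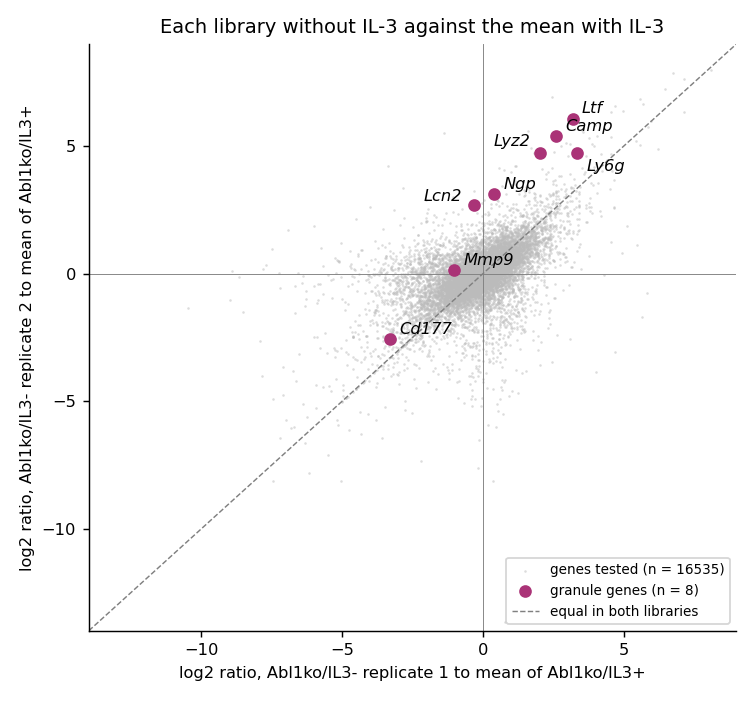
Log2 ratio of Abl1ko/IL3- replicate 1 (horizontal axis) and replicate 2 (vertical axis) to the mean of the Abl1ko/IL3+ libraries, from CPM with 0.05 added, for the 16535 genes tested (grey) and the 8 granule genes among them (purple). Both axes divide by the same mean, so genes tend to lie along the diagonal. Ltf, Camp, Lyz2 and Ly6g lie at 2 or more on both axes, as do 1.23% of all genes tested, and 7 of the 8 granule genes lie above the dashed line by more than 1 unit.

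Ratios between genes were taken from FPKM within each library. The ratio of Ngp to Lcn2 was 14.8 and 10.9 under IL-3 against 22.2 and 17.9 in its absence, while Ngp itself ranged from 157.7 to 3031 FPKM. The level of Ngp was 309 and 189 times that of Ltf under IL-3, but 37.7 and 33.4 times in its absence. For Lcn2 over Ltf the ratios were 20.9 and 17.4 under IL-3, but 1.70 and 1.87 in its absence. For Lyz2 over Ltf they were 6.1 and 16 under IL-3, against 4.31 and 3.77 in its absence. In the ratios to Ltf the libraries without IL-3 were close to each other although their levels differed several-fold, and they did not overlap the libraries with IL-3. Since Ltf itself did not overlap between the groups, that separation is not a further result. Ltf exceeded Camp 23.6 times in Abl1ko/IL3+ replicate 1, where Camp had 4 counts, and 23.0 and 22.3 times without IL-3.

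Camp, Ngp and Ltf lie on chromosome 9 within 1195 kb of each other (chr9:109847379-111042767). Of the 34 other genes of that stretch, 23 were tested, 7 were higher and 16 lower without IL-3, and 0 had an unadjusted p-value under 0.05 in edgeR (0 after adjustment). Their median log2 fold change was -0.187, with values from -1.87 to 1.35. In GENCODE release M21 no other gene overlapped any of the 10 granule genes on either strand. The annotation behind the deposited counts may differ, since its Lcn2 ends at 32387797 and that of M21 at 32388252. Whether reads of unannotated transcripts enter the counts was not tested.

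Regulators of granule genes are described next. Of the 12 granule transcription factors in the table, 11 were tested, with 3 higher and 8 lower without IL-3 (median log2 fold change -0.354), and 0 passed the adjusted threshold in edgeR. At an unadjusted p-value under 0.05 there were 0 higher and 2 lower (all genes, 3.36% lower), and DESeq2 called 1 of them (all genes, 0.968% lower). Cebpe was counted 25869 and 12269 times under IL-3, against 8698 and 17934 times in its absence, so the groups overlapped (log2 fold change -0.35, standard error 0.47, adjusted p = 0.964 in edgeR). Gfi1 reached 657 and 340 counts in the presence of IL-3 and 80 and 110 in its absence, fewer in both libraries (log2 fold change -2.20, standard error 0.53, unadjusted p = 0.00871 and adjusted p = 0.727 in edgeR; adjusted p = 0.0117 in DESeq2, the 1 call of this list). Cux1, which encodes a repressor of lactoferrin transcription, gave 21091 and 11253 counts under IL-3, but 5055 and 7923 once IL-3 was absent (log2 fold change -1.14, standard error 0.38, unadjusted p = 0.0314 and adjusted p = 0.813 in edgeR). The receptor of G-CSF, Csf3r, was scarce in all libraries, at 29 and 0 counts under IL-3 against 12 and 45 in its absence, and its ligand gene Csf3 was counted 0 and 0 times under IL-3, against 4 and 12 times in its absence.

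Other neutrophil genes were counted by list. Of 25 further genes of specific and gelatinase granules, 23 were in the table and 17 were tested, of which 11 were higher and 6 lower without IL-3 (median log2 fold change 0.278). None passed the adjusted threshold in edgeR, 2 had an unadjusted p-value under 0.05 (both higher, against 2.56% of all genes), and DESeq2 called the same 2 (against 0.671%). They were Cfp, which encodes properdin (153 and 66 counts against 339 and 560), and Slc11a1, both named after their values were seen. Leaving out Slc11a1, which passed the expression filter through its Abl1ko/IL3- counts alone, only Cfp remained by either test. In both Abl1ko/IL3- libraries 6 of the 23 were above both Abl1ko/IL3+ libraries, against 16.7% of all genes. The most abundant of the list were Pglyrp1, a peptidoglycan recognition protein, at 25175 and 32308 counts under IL-3 against 36777 and 61615 in its absence, and Cyba, a subunit of the phagocyte oxidase, with 13431 and 21404 against 15248 and 19025. Slc11a1, a metal transporter of phagocytes, reached 0 and 0 counts in the presence of IL-3 and 18 and 95 in its absence, so that it passed the filter through the libraries without IL-3 alone. Among 12 primary granule and promyelocyte genes, all tested, 3 were higher and 9 lower without IL-3 (median log2 fold change -0.189). The 9 included Ms4a3, Serpinb1a and Igfbp4. Of the 12, 0 passed the adjusted threshold in edgeR and 0 in DESeq2, and 1 was lower at an unadjusted p-value under 0.05, against 3.36% of all genes. That gene was Mpo, at 121109 and 80294 counts under IL-3 against 43479 and 28978 in its absence (log2 fold change -1.25, standard error 0.44, unadjusted p = 0.0371 and adjusted p = 0.827 in edgeR), whereas Cd63 had 57157 and 51436 counts against 51295 and 64686. In the list of 12 late neutrophil genes, 7 of the 10 tested were higher and 3 lower, 0 passed in edgeR and 2 in DESeq2 (both higher, against 0.671% of all genes). S100a8 (74 and 21 counts against 3410 and 7167) and S100a9 (460 and 89 against 6735 and 21503), which encode the calprotectin subunits, were those 2 and the only ones of the list at an unadjusted p-value under 0.05, where 2.56% of all genes were higher. Cxcr4, the most abundant of the list, had a log2 fold change of -0.23 (adjusted p = 0.987 in edgeR).

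**Figure D4:**
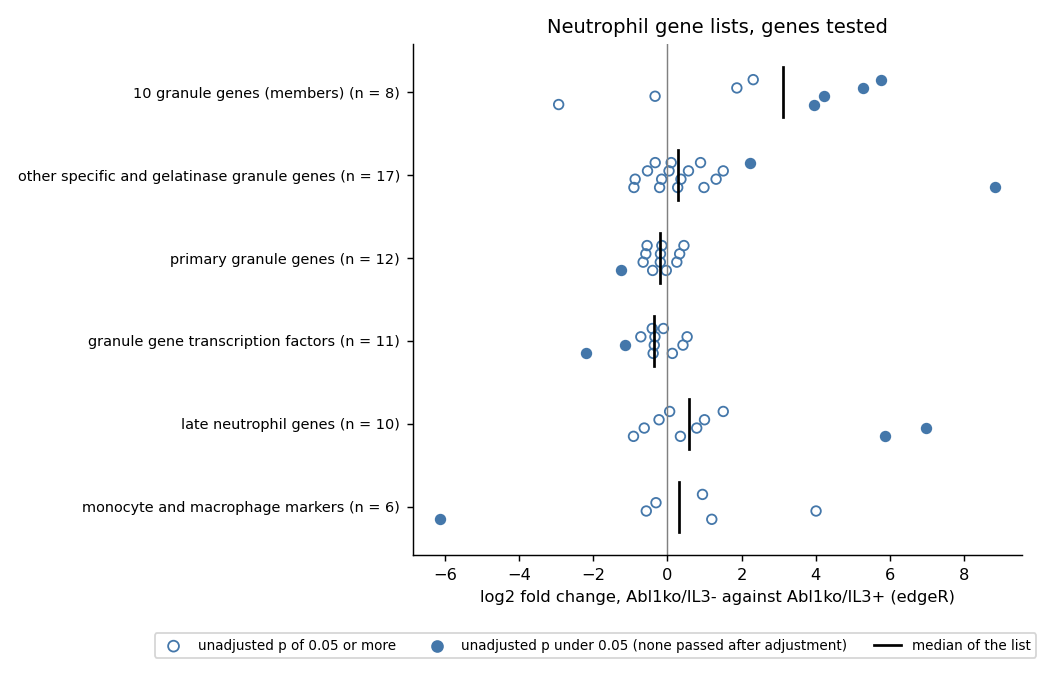
Log2 fold change, Abl1ko/IL3- against Abl1ko/IL3+ (horizontal axis, edgeR), of each gene tested in 6 lists, filled where the unadjusted p-value was under 0.05, with a line at the median of each list. The median of the 8 granule genes lies at 3.13, and those of the other lists between -0.354 and 0.571. The point at 8.83 is Slc11a1, whose value depends on the prior count because it had 0 counts with IL-3.

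Markers of other cells that the cultures could hold were summed in CPM. The 10 monocyte and macrophage markers came to 332 and 59.9 CPM under IL-3 and to 102 and 221 CPM in its absence, so the groups overlapped. In edgeR 0 of the 6 tested passed the adjusted threshold, and the complement gene C1qb, named after its values were seen, was the 1 lower at an unadjusted p-value under 0.05 (against 3.36% of all genes) and the 1 that DESeq2 called (against 0.968%). Of the 10 genes, 3 were above both Abl1ko/IL3+ libraries in both Abl1ko/IL3- libraries, against 16.7% of all genes, and 1 was below, against 14.6%. Ccr2, a chemokine receptor of monocytes also named after its values were seen, was among the 3, at 9 and 0 counts against 26 and 106 (log2 fold change 4.01, standard error 1.60, adjusted p = 0.847 in edgeR). It passed the expression filter through its Abl1ko/IL3- counts alone, and its level with IL-3 rested on those 9 counts. Csf1r, the receptor of macrophage colony-stimulating factor, overlapped at 2501 and 366 counts against 1141 and 3711. Adgre1 and Cd68 overlapped too, with at most 12931 and 4774 counts, and Cx3cr1 had at most 4 counts in any library. The 6 B lineage markers in the table came to 19.0 and 26 CPM with IL-3, and to 20.1 and 19.1 CPM in its absence. The 3 T and NK markers in the table were low but moved with the granule genes, from 0.233 and 0.147 CPM with IL-3 to 0.94 and 3.07 CPM without it. In the libraries without IL-3 nearly all of this was Cd3d (0 and 8 counts against 45 and 170), while Cd4 had 0 counts in 3 libraries and 8 in the other. The part of these cells in the granule gene values was not tested.

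The genes most like the granule genes were sought by the root mean square difference of centred log2 CPM from the median profile of the 8 granule genes tested, over the 4 libraries. The nearest were Nlrp12 (difference 0.251), Cib3 (0.306), Hilpda (0.329) and Tgif2 (0.383), each above both Abl1ko/IL3+ libraries in both Abl1ko/IL3- libraries and highest in replicate 2. The granule genes themselves lay from 0.504 (Ngp) to 2.81 (Cd177) from that profile. Hilpda, which encodes a lipid droplet protein, was the most abundant of these 4, at 743 and 531 counts under IL-3 against 1573 and 6247 in its absence (log2 fold change 2.72, standard error 0.65, unadjusted p = 0.00888 and adjusted p = 0.727 in edgeR). These genes were chosen by their values in these same libraries. Their place above the Abl1ko/IL3+ libraries, their peak in replicate 2 and the p-value of Hilpda follow from that choice and are not evidence. With 4 libraries, such likeness is a description of these samples only.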

How the data were processed

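RNA depleted of ribosomal RNA was sequenced from 4 libraries. According to its methods, the study used Rsubread for alignment (mm10, that is GRCm38) and featureCounts for summarizing, and the authors deposited raw counts per gene. FPKM were deposited beside them without a named tool. The submitters' processing notes list STAR, Cuffdiff and mm10. Their versions, and whether strand was used, are not given in the sources used here. Even values made up 57.7% to 59.9% of counts from 1 to 20, so both mates of a pair may often be counted, and counting intervals would then be too narrow.

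Low counts were removed by filterByExpr, and the rest were scaled by TMM and tested in edgeR 4.0.16 (quasi-likelihood F test, two-sided, Benjamini-Hochberg threshold 0.05) in R 4.3.3. Each standard error is the absolute log2 fold change over the square root of F. CPM is scaled by the TMM library size of the tested genes. DESeq2 1.42.0 and limma 3.58.1 were used for alternatives, and the edgeR and DESeq2 fits were tested on simulated data. Promoters were taken from RefSeq (GRCm38.p6). Libraries were numbered 1 and 2 by the labels in both groups, which were not treated as pairs. The p-values measure the spread between these samples. No 2 libraries were alike within sampling noise.

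The 10 genes and all gene lists were chosen with earlier results of these data known. The genes named were the 10, the regulators and S100 genes fixed with them, the 2 most abundant of each list, and the 5 nearest in profile, some of which are not reported here. Any further gene was picked with its values in view.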

Additional observations from a re-analysis of the deposited data

How the results depend on the processing

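With 2 libraries a group, a single library weighs heavily. The number of granule genes past the adjusted threshold was 0 of 8 in edgeR, and 4 in DESeq2 (271 genes in all, where edgeR called 0). Leaving out a library gave 0 to 2 granule genes and 0 to 22 genes in all, the highest of both without Abl1ko/IL3- replicate 1 (Ltf and Lyz2), and 1 gene in all without Abl1ko/IL3- replicate 2. In these fits the lone library is assumed to vary like the other group. The median log2 fold change of the granule genes ranged from 2.04 to 3.92 when a library was left out, and was 1.68 with limma on log2(FPKM + 1), which shrinks low genes. In that limma fit 3 granule genes had an unadjusted p-value under 0.05, among 1053 genes in all. Camp was not among them (log2 fold change 1.41, unadjusted p = 0.0707 in limma). With 0.1 added in place of 1 there were 4, Camp included, among 1052 genes in all. The number of granule genes above in both libraries ranged from 5 to 9 (8 without Abl1ko/IL3+ replicate 1, 9 without Abl1ko/IL3- replicate 1). Leaving out a library makes this condition easier to meet for any gene, and the share of all genes meeting it was not counted there. The 8 and 9 therefore cannot be set against the 16.7% of all genes found with every library, and no conclusion is drawn from them. Without a library in turn, Lcn2 ranged from -0.32 to 2.71 and Mmp9 from -1.05 to 0.15. With the replicate number as a block, 0 granule genes passed (0 of all genes), and the median was 2.68. In that fit 4 granule genes had an unadjusted p-value under 0.05, among 548 genes in all. The correlation of deviations between same-numbered libraries was -0.194, and a crossed pairing was added once the data had been seen, in which 0 granule genes passed and 5 had an unadjusted p-value under 0.05, among 1136 genes in all. With a minimum of 10 counts in every library, which removes Camp, the median was 2.32. There 3 of 7 granule genes had an unadjusted p-value under 0.05, as did 840 of the 14031 genes tested, in either direction. Other size factors, library size only, other filters and the adjusted threshold of 0.1 left the count at 0. For single genes, 103 of 111 alternative values kept their sign and their side of the threshold.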

Other observations

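Lineage genes outside the neutrophil lists also differed between replicates. The globin gene Hba-a1 was counted 7559 and 366735 times in the Abl1ko/IL3+ libraries (replicate 1, then 2) against 158709 and 91439 times in the Abl1ko/IL3- libraries, and Hba-a2 followed it with 5168 and 227017 against 71819 and 52000. Prg2, a granule protein of eosinophils, gave 2557 and 112183 counts against 33585 and 30337, and the eosinophil peroxidase gene Epx had 146102 and 56479 against 37270 and 24231, lower in both libraries without IL-3 (log2 fold change -1.47, standard error 0.57, adjusted p = 0.841 in edgeR). Among mast cell genes Cpa3 had 20162 and 1400 counts against 2038 and 2722, and Gata2 14230 and 1885 against 1135 and 7734. Cd177, the granule gene that was highest with IL-3, had its high value in Abl1ko/IL3+ replicate 2, the library in which Hba-a1 and Prg2 were also highest. None of the 6 mast cell and basophil genes, 3 eosinophil genes or 8 erythroid and megakaryocyte genes tested passed the adjusted threshold in edgeR, where 0, 1 and 1 of them had an unadjusted p-value under 0.05 (Epx and Gp1ba, both lower, against 3.36% of all genes), and DESeq2 called 0, 0 and 1 (Gp1ba, against 0.968% of all genes lower).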
